A study of Mus musculus with 12 samples.

Results

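The tristetraprolin family and the BTG/TOB family are short-lived regulators of messenger RNA decay, and 8 of their genes were followed in epididymal fat of the mouse after epinephrine. The members are Zfp36, Zfp36l1 and Zfp36l2, which encode tristetraprolin and its relatives, and Btg1, Btg2, Btg3, Tob1 and Tob2. They were picked by gene symbol, and all 8 were found among the 27179 genes of the count table and were among the 16175 genes tested. Epididymal white adipose tissue (eWAT), the fat pad beside the epididymis, came from male C57BL/6J mice on chow, with 1 library for each of 12 samples. For the 6 vehicle samples saline was given into the peritoneum, for the 6 epinephrine samples sodium epinephrine at 0.5 mg/kg by the same route, and fat was taken 1 h later. The labels number the samples of a group as biological replicates without saying how many mice gave each. The titles do not state that the same number in both groups marks a pair. The p-values measure the spread between these samples. Listed ages run from 12 to 17 weeks in the vehicle group and from 18 to 23 weeks in the epinephrine group, so age and treatment cannot be told apart by the labels. Consecutive samples, in the order of the replicate numbers and across both groups, differ by exactly 1 week in listed age, so it may be a serial entry rather than a measured age. Fits with listed age as a covariate carry that doubt. Within a group listed age only follows the replicate number, and no listed age occurs in both groups. Such a fit therefore extends the trend along the number from one group to the other, and its estimates are not responses at equal age. Epinephrine, a hormone of the adrenal medulla, raises cyclic AMP in fat cells through beta-adrenergic receptors, and the comparison asked which messages differed after it.

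Tristetraprolin proteins carry paired CCCH zinc fingers that bind AU-rich elements in the 3′ untranslated region of target messages, many of them for cytokines and early response genes. BTG and TOB proteins share a BTG domain that binds the CNOT7 and CNOT8 deadenylases. Both families bring the CCR4-NOT complex to a message, which shortens its poly(A) tail and leads to its decay. Several members are themselves early response genes, induced by growth factors, stress or cyclic AMP, and BTG/TOB proteins are also known for restraining cell division.

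Libraries held 24821601 to 34405433 counts. Adipocyte markers were abundant in all libraries, with Adipoq, the adiponectin gene, at 1144 CPM (the gene's count relative to library size, scaled by TMM factors) or more among vehicle and 1309 CPM or more among epinephrine libraries. Epididymal transcripts varied within both groups: 12 epididymal genes took 0.00381% to 4.64% of counts with vehicle and 0.00907% to 3.30% with epinephrine. Gpx5, an epididymal glutathione peroxidase gene, exceeded 0.5% of counts in vehicle 2, epinephrine 1 and epinephrine 2, where the 10 adipocyte genes took the smallest shares (1.33%, 1.59% and 2.24% of counts). The epididymal score, the mean log2 CPM of the 12 genes, was above 6 in numbers 1 to 3 of both groups and below 6 in numbers 4 to 6, and the listed age grows with the number. A fit with listed age as a covariate thus also takes in what changes along the number, this score included. In bulk tissue, fewer cells of a type and less RNA per cell cannot be told apart. Between groups, 0 of 10 adipocyte, 0 of 10 macrophage and monocyte and 0 of 12 epididymal marker genes passed the test in either direction. Of 8 endothelial genes 1 passed, Cldn5, which was higher (log2 fold change 1.06), while the median of the 8 was -0.01. Of 10 T and NK cell genes 1 passed, Ncr1, which was lower (-0.98, median -0.32), and Klrb1c was higher on average (0.43). Of 4 red cell genes tested 1 passed, Hbb-bs, which was lower (-0.997, median -0.47). Over all tested genes, 6.23% passed in either direction.

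Of the 8 genes, 3 rose with epinephrine and 0 fell: Btg2, Tob1 and Btg1. Of all genes tested, 2.65% were called higher, 3.58% lower and 6.23% in either direction by edgeR's quasi-likelihood test (adjusted p below 0.05 over all tested genes). The same 3 genes had every epinephrine library above every vehicle library, which 2.04% of all tested genes did; 2.74% had every epinephrine library below. The median log2 fold change of epinephrine over vehicle, called the log2 change from here on, was 0.90 for the 8, and -0.00059 for all tested genes. Zfp36 and Tob2 were also higher on average but did not pass, although both passed with the replicate number as a block, when the epididymal score was a covariate and by DESeq2. Zfp36l1, Zfp36l2 and Btg3 passed in none of these 4 fits.

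**Figure D1:**
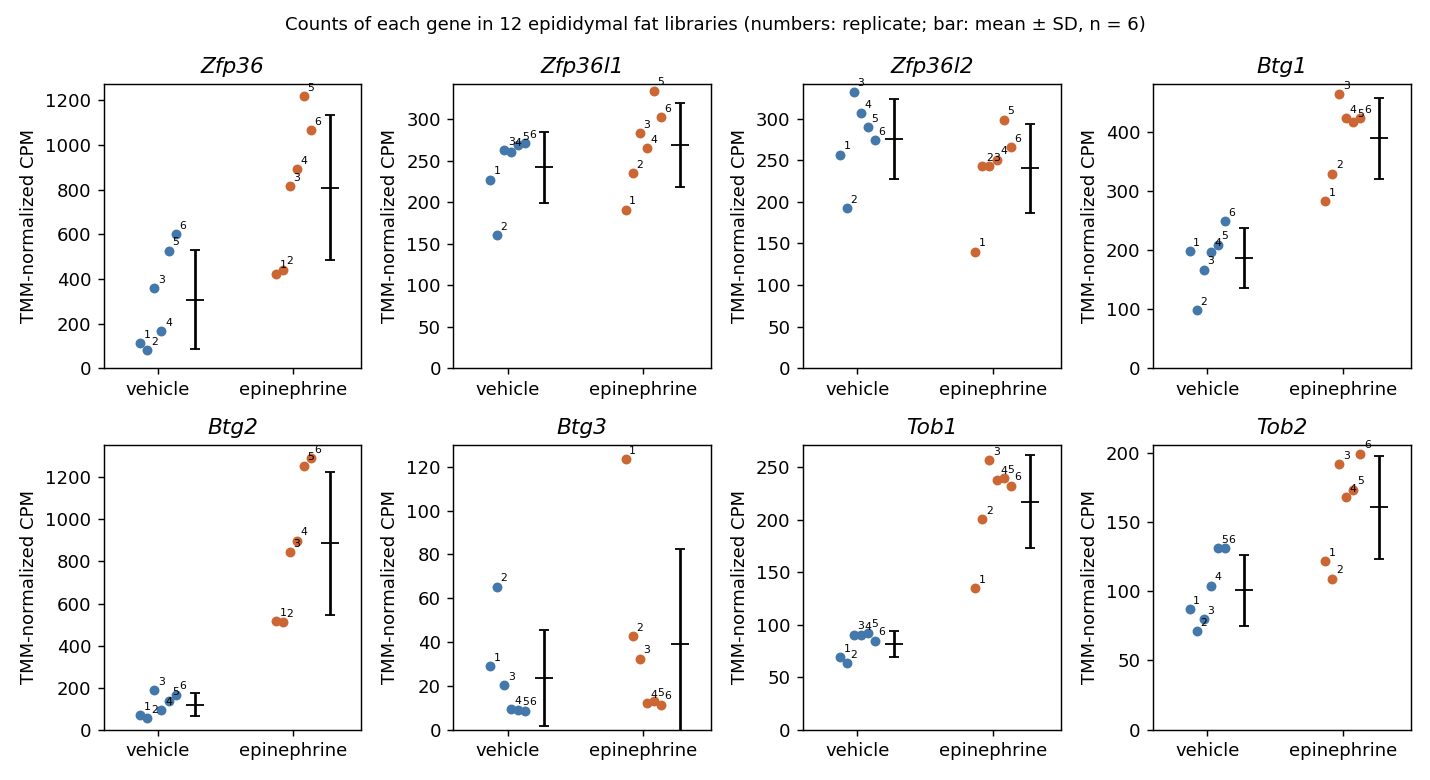
TMM-normalized CPM (y axis, from 0) of each gene in the 6 vehicle and 6 epinephrine libraries; points are libraries with their replicate numbers, and bars the mean ± SD (n = 6; the lower arm for Btg3 is cut at 0). Btg1, Btg2 and Tob1 have no overlap between groups, while Zfp36 runs from 80.7 to 601 CPM with vehicle and from 424 to 1218 CPM with epinephrine.

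Btg2 (chromosome 1, 134074865 to 134079155, GRCm38.p6 as for all positions here), an antiproliferative gene induced by p53 and growth factors, had the largest log2 change of the 8 in the fit without a covariate; with listed age as a covariate that of Btg3 was larger (4.32 against 1.21). It lay between 55.3 and 188 CPM with vehicle (median 116) and between 512 and 1292 CPM with epinephrine (median 872). Every epinephrine library was well above the highest vehicle library. The mean went from 118 ± 54.2 to 886 ± 341 CPM (SD, n = 6 each), a 7.49-fold rise with a log2 change of 2.90 (SE 0.37, adjusted p = 0.000859 by edgeR). Ordered by log2 change from the largest rise down, Btg2 was number 25 of the 16175 genes. Within replicate numbers the log2 difference was between 2.16 and 3.26, positive in 6 of 6. The lowest value of each group was in a library rich in epididymal transcripts, vehicle 2 and epinephrine 2. With epinephrine, libraries 1 and 2 were at 516 and 512 CPM and the other 4 at 844 to 1292 CPM. Without vehicle 2, epinephrine 1 and epinephrine 2 the log2 change was 3.04 (SE 0.31, adjusted p = 0.00042 by edgeR). With listed age as a covariate it was 1.21 (adjusted p = 0.0776 by edgeR), and within numbers 1 to 3 alone, where 0 of 16709 genes passed and 1356 had an unadjusted p under 0.05, it was 2.60 (adjusted p = 0.342 by edgeR).

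Btg1 (chromosome 10, 96617001 to 96622813), the closest relative of Btg2 and a gene linked to quiescence of lymphocytes, rose 2.09-fold. Vehicle libraries were at 98.4 to 248 CPM (median 198) and epinephrine libraries at 282 to 463 CPM (median 419). The highest vehicle library, number 6, and the lowest epinephrine library, number 1, were 248 and 282 CPM, so the gap between the groups was small. The means were 186 ± 50.4 and 389 ± 68.5 CPM (SD, n = 6 each), a log2 change of 1.06 with an SE of 0.20 (adjusted p = 0.00906, edgeR). Without the 3 libraries rich in Gpx5 the log2 change was 1.08 (SE 0.11, adjusted p = 0.000336 by edgeR). Its call ended with listed age as a covariate (0.37, adjusted p = 0.403 by edgeR) and within numbers 1 to 3 (1.23, adjusted p = 0.42 by edgeR). Near-copies Btg1b and Btg1c are annotated, with 0 to 1 counts for each library in both, so few reads were counted there.

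Tob1 (chromosome 11, 94209842 to 94215495), whose product binds both the deadenylase and the poly(A)-binding protein, had the smallest p of the 8. It was at 63.3 to 92.3 CPM with vehicle (median 87.3) and at 135 to 257 CPM with epinephrine (median 235). The groups did not overlap, and the lowest epinephrine library was number 1. The mean rose 2.66-fold, from 81.6 ± 12.4 to 217 ± 44.2 CPM (SD, n = 6 each), a log2 change of 1.41 with an SE of 0.16 (adjusted p = 0.000391, edgeR). Without the 3 libraries rich in Gpx5 it was 1.51 (SE 0.09, adjusted p = 1.74e-05 by edgeR). With listed age as a covariate it was 0.77 (adjusted p = 0.0485 by edgeR), and within numbers 1 to 3 alone 1.43 (adjusted p = 0.299 by edgeR).

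The bases before a start site of each BTG/TOB gene that rose are shown because all 3 stretches hold TGACG. This is the core of the cyclic AMP response element (CRE), a site for CREB family factors. For Tob1 that start site, 94211454, lies within the gene's span (94209842 to 94215495, plus strand), so its stretch is inside the gene. RefSeq promoter windows (GRCm38.p6, the assembly that mm10 names) matched 7 of the 8 members, with 8 windows in all. The 250 bases before each start site were searched on both strands, and the sequences are printed on the strand of the gene. Capitals mark TGACG or its reverse complement. In Btg2 these lie within the full CRE, TGACGTCA, at positions -166 to -159 from the start site; Btg1 has the core at -187 to -183 and -103 to -99, and Tob1 at -96 to -92.
Btg2, chr1:134079156-134079405, minus strand: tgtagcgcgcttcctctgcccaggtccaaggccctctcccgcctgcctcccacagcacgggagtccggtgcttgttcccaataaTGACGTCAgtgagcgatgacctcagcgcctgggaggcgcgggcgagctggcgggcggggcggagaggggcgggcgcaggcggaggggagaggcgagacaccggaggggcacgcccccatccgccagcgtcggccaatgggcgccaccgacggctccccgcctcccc
Btg1, chr10:96616751-96617000, plus strand: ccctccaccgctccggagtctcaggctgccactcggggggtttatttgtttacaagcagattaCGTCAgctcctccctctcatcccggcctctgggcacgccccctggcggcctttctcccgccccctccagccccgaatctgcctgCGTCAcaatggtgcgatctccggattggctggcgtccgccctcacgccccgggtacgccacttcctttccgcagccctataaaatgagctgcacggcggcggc
Tob1, chr11:94211204-94211453, plus strand: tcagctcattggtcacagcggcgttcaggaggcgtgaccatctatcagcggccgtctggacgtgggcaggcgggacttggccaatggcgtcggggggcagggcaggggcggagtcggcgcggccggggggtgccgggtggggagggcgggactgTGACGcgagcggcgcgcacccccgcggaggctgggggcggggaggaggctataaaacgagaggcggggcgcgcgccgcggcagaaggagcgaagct
Of 32851 windows of this length in the table, 17.8% held TGACG and 1.55% the full CRE, which contains it. The windows of Zfp36, Zfp36l1, Tob2 and Btg3 did not hold TGACG, and Zfp36l2 is named only. AP-1 sites (TGANTCA) were in the Zfp36l1 window and 6.75% of all windows, and EGR sites (GCGNGGGCG) in those of Zfp36 and Btg2 and 4.70% of all. TATA boxes (TATAAA) were in those of Zfp36l1, Btg1 and Tob1 and 12.4% of all. The NF-kappaB site, searched by a letter pattern with alternatives at some positions, was in 1 Btg3 window and 7.25% of all. The CArG box of serum response factor (CC, a run of A or T, then GG) was in the window of Zfp36 and 1.47% of all. GAANNTTC, part of the heat shock element, was in 0 member windows and 6.69% of all. These matches are descriptions of letters, and binding was not measured.

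Tob2 (chromosome 15, 81848270 to 81858326), the paralog of Tob1, was higher by a smaller margin that did not pass. Its levels ran from 70.8 to 131 CPM with vehicle (median 95.4) and from 109 to 199 CPM with epinephrine (median 170). The groups overlapped where vehicle 5 and 6 lay above epinephrine 1 and 2. The mean was 101 ± 25.9 CPM in the vehicle group and 160 ± 37.0 CPM in the epinephrine group (SD, n = 6 each), a log2 change of 0.67 with an SE of 0.20 (adjusted p = 0.0724, edgeR). It passed with the replicate number as a block (0.68, SE 0.12, adjusted p = 0.0248 by edgeR) and when the epididymal score was a covariate (0.73, SE 0.10, adjusted p = 0.000908 by edgeR). It also passed without the 3 libraries rich in Gpx5 (0.78, SE 0.16, adjusted p = 0.013 by edgeR), without epinephrine 1 alone (adjusted p = 0.0461 by edgeR) and without epinephrine 2 alone (adjusted p = 0.0448 by edgeR). Within each number Tob2 was above vehicle with epinephrine, in 6 of 6, by 0.40 to 1.26 on the log2 scale. The titles state no such pairing by number. With listed age as a covariate it turned to -0.27 (adjusted p = 0.396 by edgeR).

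Btg3 (chromosome 16, 78359860 to 78377181), a more distant member of the BTG family, was the least abundant and spread most. It was at 8.72 to 65.2 CPM with vehicle (median 14.9) and at 11.3 to 124 CPM with epinephrine (median 22.6). The highest values, 65.2, 124 and 42.8 CPM, were in vehicle 2, epinephrine 1 and epinephrine 2, the libraries rich in Gpx5, and libraries 4 to 6 of both groups were at 8.72 to 13.0 CPM. The groups overlapped, with a log2 change of 0.73 (SE 0.72, adjusted p = 0.732 by edgeR). Without epinephrine 1 it turned to -0.079 (adjusted p = 0.967 by edgeR), without the 3 libraries rich in Gpx5 it was 0.18 (adjusted p = 0.858 by edgeR), and with listed age as a covariate 4.32 (SE 0.63, adjusted p = 0.00257 by edgeR). Among numbers 4 to 6 alone, where epididymal transcripts were low, every epinephrine library exceeded the vehicle library of its number (log2 change 0.43, SE 0.09, adjusted p = 0.0392 by edgeR).

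An AU-rich nonamer was found in the messages of the tristetraprolin family, whose own products bind such elements, and is shown for that reason. The DNA form TTATTTATT, a full tristetraprolin site, was searched on the sense strand of the longest annotated 3′ untranslated region (UTR) of each gene in GENCODE M21 (GRCm38). All 3 Zfp36 genes held 1 each, in the last of 2 exons, and 0 of the 5 BTG/TOB genes did. Sites of 25 bases are shown with the nonamer in capitals.
Zfp36, chr7:28376953-28376977, minus strand: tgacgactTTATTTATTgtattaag
Zfp36l1, chr12:80108169-80108193, minus strand: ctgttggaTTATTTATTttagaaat
Zfp36l2, chr17:84184916-84184940, minus strand: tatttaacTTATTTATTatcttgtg
Of 20966 genes with a 3′ UTR, 7.61% held the nonamer, and the share grows with length: 4.03% at 500 to 1000 bases and 14.6% at 2000 to 5000 bases. The Zfp36 UTR is 774 bases, and those of Zfp36l1 and Zfp36l2 are 1835 and 1822 bases, a length class (1000 to 2000) with 9.06%. The UTRs of Btg1, Btg2 and Tob2, at 4166, 2199 and 2457 bases, held the shorter ATTTA 11, 5 and 4 times without the nonamer. These are 2.64, 2.27 and 1.63 per 1000 bases. Those of Btg3 and Tob1, at 439 and 767 bases, held it 4 and 3 times, or 9.11 and 3.91 per 1000 bases. The median over all genes with a 3′ UTR was 1.235 per 1000 bases. Of 1105 other tested genes with the nonamer, 4.62% were called higher and 3.35% lower, against 2.49% and 3.36% of 13312 without it. These shares are counts, and UTR length was not matched.

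Zfp36 (chromosome 7, 28376784 to 28379228), which encodes tristetraprolin itself, had the highest mean of the tristetraprolin family and the widest vehicle values. Vehicle libraries were at 80.7 to 601 CPM (median 263), a 7.45-fold range, and epinephrine libraries at 424 to 1218 CPM (median 853), a 2.87-fold range. Vehicle 1, 2 and 4 were at 111, 80.7 and 166 CPM, whereas vehicle 3, 5 and 6 were at 360, 527 and 601 CPM, the last 2 above the lowest epinephrine libraries. The mean was 308 ± 222 CPM in the vehicle group and 809 ± 324 CPM in the epinephrine group (SD, n = 6 each), a 2.63-fold difference that did not pass (log2 change 1.39, SE 0.51, adjusted p = 0.16 by edgeR). Within each number epinephrine was above vehicle, in 6 of 6, by 0.83 to 2.45 on the log2 scale, though the titles state no pairing by number. With the number as a block the log2 change was 1.67 (SE 0.26, adjusted p = 0.0184 by edgeR), and when the epididymal score was a covariate 1.59 (SE 0.34, adjusted p = 0.0128 by edgeR). Without the 3 libraries rich in Gpx5 it was still short of the threshold (adjusted p = 0.0811 by edgeR). DESeq2 without a block also called it (1.41, SE 0.49, DESeq2 adjusted p = 0.0432). With listed age as a covariate the direction turned, at -1.01 (SE 0.57, adjusted p = 0.193 by edgeR).

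Other early response and cytokine genes were high in the same vehicle libraries. Fos, an AP-1 gene and a known tristetraprolin target, was at 22.3, 20.0 and 66.1 CPM in vehicle 1, 2 and 4 and at 131, 134 and 133 CPM in vehicle 3, 5 and 6. Ccl2, a monocyte chemokine gene, was at 8.53, 7.22 and 10.1 CPM in the first set and at 85.5, 103 and 149 CPM in the second. Cxcl1, a neutrophil chemokine gene, was at 1.89, 1.59 and 4.25 CPM against 102, 68.9 and 118 CPM. Il6 was at or below 0.419 CPM in vehicle 1, 2 and 4 and at 5.78, 11.4 and 18.0 CPM in vehicle 3, 5 and 6. Btg2 was likewise higher there, at 188, 138 and 167 CPM against 68.4, 55.3 and 93.7 CPM, though far below any epinephrine library. Among epinephrine libraries, number 3 stood out for these 3 cytokine genes, with Ccl2 at 69.1, Cxcl1 at 106 and Il6 at 10.8 CPM, while its Zfp36 was at 815 CPM, in the middle of its group. The cytokine genes were chosen for this comparison after their values were seen, and their part in the spread of Zfp36 was not tested.

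Zfp36l1 (chromosome 12, 80107760 to 80113013) and Zfp36l2 (chromosome 17, 84183924 to 84187947), relatives with the same zinc fingers that are known for roles in lymphocyte and vascular development, stayed within overlapping ranges. Zfp36l1 was at 160 to 271 CPM with vehicle (median 262) and 191 to 334 CPM with epinephrine (median 274; log2 change 0.15, SE 0.16, adjusted p = 0.758 by edgeR). The means were 242 ± 43.1 and 268 ± 50.6 CPM (SD, n = 6 each). Zfp36l2 was at 192 to 332 CPM with vehicle (median 282) and 140 to 299 CPM with epinephrine (median 247), the lowest being epinephrine 1. Its means were 275 ± 48.5 and 240 ± 53.2 CPM (SD, n = 6 each), a log2 change of -0.20 with an SE of 0.18 (adjusted p = 0.689, edgeR). With listed age as a covariate Zfp36l1 turned to -0.55 (adjusted p = 0.0972 by edgeR) and Zfp36l2 moved to -0.84 (adjusted p = 0.0701 by edgeR).

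**Figure D2:**
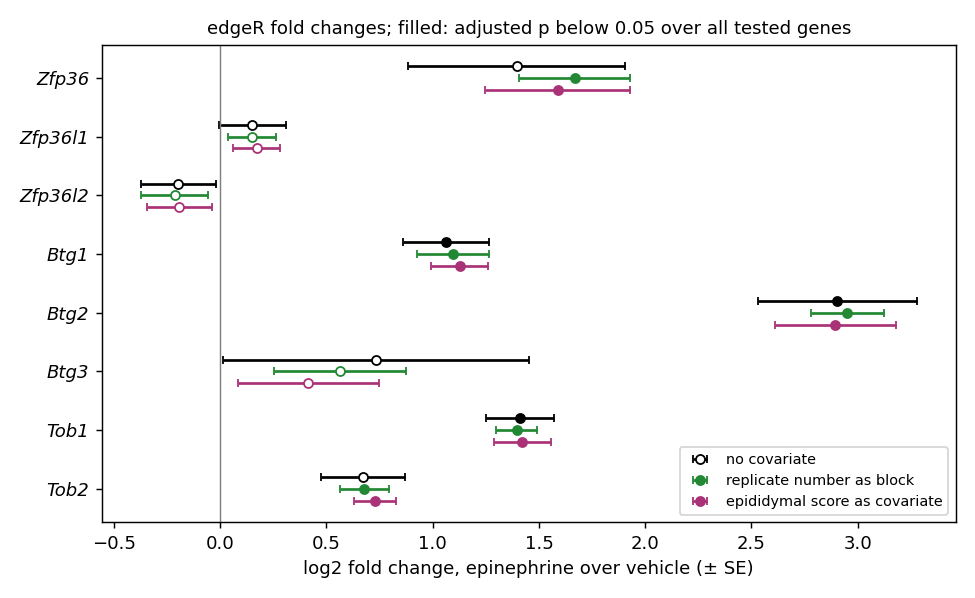
log2 change of epinephrine over vehicle (x axis, ± SE) from 3 edgeR fits: without a covariate, with the replicate number as a block and when the epididymal score was a covariate. Filled points passed; Btg1, Btg2 and Tob1 are filled in every fit shown, while Zfp36 (1.39, 1.67 and 1.59) and Tob2 (0.67, 0.68 and 0.73) are filled with the block and with the score.

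Paralogs were then compared within libraries, as the log2 ratio of their counts, which does not depend on scaling. Of 7 pairs within a family, the ratio differed between groups for 5 (exact two-sided permutation tests adjusted over 7 pairs; the smallest p that 6 against 6 can give is 0.00216). Btg2 gained over Btg1: the log2 ratio of Btg1 to Btg2 was 0.74 ± 0.57 in vehicle and -1.11 ± 0.41 in epinephrine libraries (SD, n = 6 each), a difference of -1.85 (SE 0.29, 95% interval -2.49 to -1.20, exact permutation p = 0.00216, adjusted p = 0.00758). All 6 epinephrine ratios were below all vehicle ratios. Tob1 gained over Tob2 by 0.72 (SE 0.16, interval 0.36 to 1.07, exact permutation p = 0.00433, adjusted p = 0.00758), from -0.28 ± 0.29 to 0.44 ± 0.26 (SD, n = 6 each). The 2 groups overlapped only at vehicle 0.18 and epinephrine 0.15.

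Zfp36 gained over both of its relatives. Its log2 ratio to Zfp36l1 lay between -1.02 and 1.15 with vehicle and between 0.91 and 1.87 with epinephrine (difference 1.52, SE 0.44, interval 0.51 to 2.55, exact permutation p = 0.00866, adjusted p = 0.0121). Its ratio to Zfp36l2 differed by 1.88 (SE 0.47, interval 0.79 to 2.98, exact permutation p = 0.00433, adjusted p = 0.00758). Zfp36l1 and Zfp36l2 also parted, by a smaller amount: 0.36 (SE 0.08, interval 0.19 to 0.55, exact permutation p = 0.00433, adjusted p = 0.00758). Neither of those 2 genes passed on its own. Btg2 to Btg3 differed by 2.38 with a wide interval, 0.05 to 4.86 (exact permutation p = 0.0476, adjusted p = 0.0556), and passed without epinephrine 1 (2.96, adjusted p = 0.0152). Btg1 to Btg3 differed by 0.52, with an interval of -1.52 to 2.55 (exact permutation p = 0.574).

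**Figure D3:**
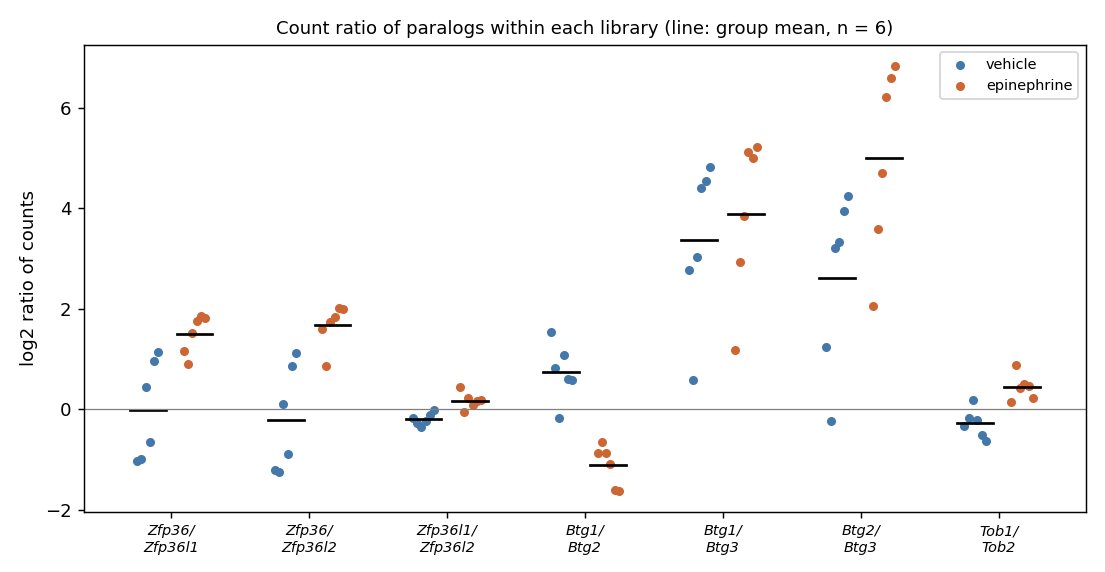
log2 ratio of counts of 7 paralog pairs (y axis) in each library; points are libraries, lines group means (n = 6 each). The Btg1 to Btg2 ratio changes from a mean of 0.74 to -1.11 with no overlap, and the ratios to Btg3 span more than 4 log2 units within a group.

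Levels of different genes were compared per length, as TPM, which divides each count by the deposited gene length and scales every library to the same sum. With vehicle the order of means was Zfp36 at 392 ± 274, Zfp36l1 at 184 ± 33.4 and Zfp36l2 at 177 ± 34.4 TPM, then Btg2 at 87.2 ± 40.3, Btg1 at 84.5 ± 22.3, Tob1 at 81.1 ± 12.6, Tob2 at 56.9 ± 13.2 and Btg3 at 38.6 ± 35.1 TPM (SD, n = 6 each). Neighbours in this order differed by more than the larger of their SDs at 2 steps, from Zfp36l2 to Btg2 and from Tob1 to Tob2. With epinephrine Btg2 stood next to Zfp36, at 612 ± 240 and 975 ± 392 TPM, followed by Tob1 at 201 ± 41.0, Zfp36l1 at 191 ± 36.5, Btg1 at 165 ± 29.3, Zfp36l2 at 144 ± 32.0, Tob2 at 85.4 ± 20.2 and Btg3 at 59.9 ± 66.3 TPM (SD, n = 6 each). Here the 2 such steps were from Btg2 to Tob1 and from Zfp36l2 to Tob2. Every Btg2 library was above every Tob1 library, and Zfp36 exceeded Btg2 in 6 of 6 libraries although their ranges overlapped.

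As a share of each family's TPM, Btg2 and Zfp36 were larger on average with epinephrine. Btg2 made up 40.2% ± 13.7 of the sum of Btg1, Btg2 and Btg3 in vehicle and 71.1% ± 11.1 in epinephrine libraries (SD, n = 6 each), and the sum went from 210 ± 32.2 to 837 ± 217 TPM. Zfp36 took 46.3% ± 16.9 of its family's sum with vehicle and 73.0% ± 5.73 with epinephrine. The relatives outside the list were near 0: Btg4, an oocyte gene, had 10 counts in all 12 libraries, and Zfp36l3, a placental gene, 13.

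**Figure D4:**
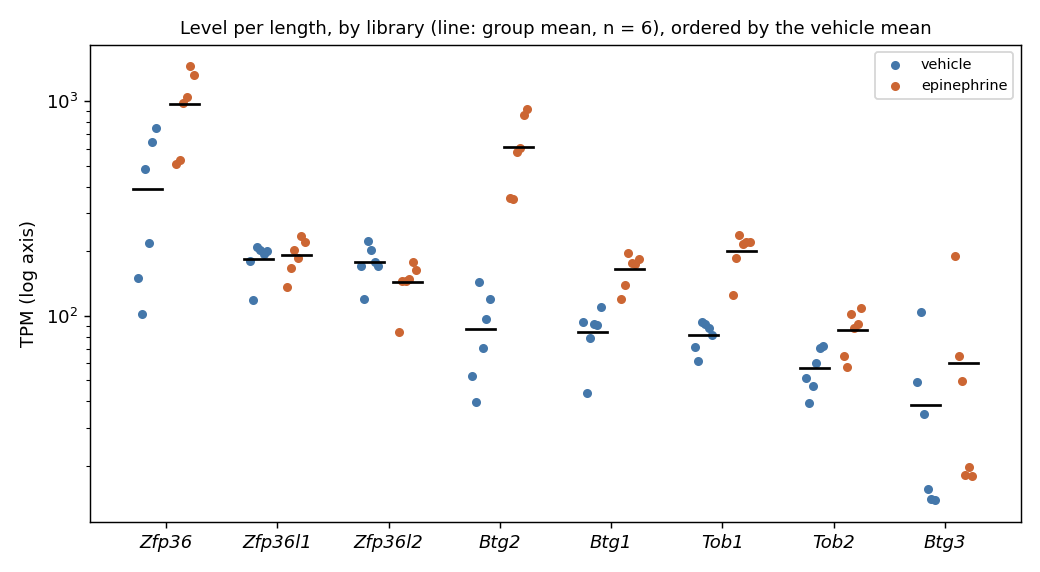
TPM (log axis) of the 8 genes in each library, ordered by the vehicle mean; lines are group means (n = 6). Btg2 moves from 87.2 to 612 TPM, past Zfp36l1 and Zfp36l2, which stay at 144 to 191 TPM on average in both groups.

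The spread within groups followed the epididymal score for several members. With 16 relations (8 genes in 2 groups, n = 6 each), Btg3 rose with the score: Pearson's r was 0.93 with epinephrine (exact permutation p = 0.00556, adjusted p = 0.0222), or 0.97 once the 2 libraries with the most extreme scores were left out, and it was 0.84 with vehicle (exact permutation p = 0.0222, adjusted p = 0.0593; 0.70 without the 2). Spearman's rho was 0.94 in both (exact permutation p = 0.0167, adjusted p = 0.0381). Btg2 fell along the score with epinephrine (r = -0.96, exact permutation p = 0.00556, adjusted p = 0.0222; rho = -0.94, adjusted p = 0.0381; r = -0.93 without the 2), and so did Zfp36 (r = -0.93, exact permutation p = 0.0139, adjusted p = 0.0444; rho = -0.94, adjusted p = 0.0381; r = -0.94 without the 2). With vehicle the relation passed for Tob2 (r = -0.96, exact permutation p = 0.00556, adjusted p = 0.0222; rho = -0.94, adjusted p = 0.0381; r = -0.98 without the 2) and Btg1 (r = -0.87, exact permutation p = 0.00556, adjusted p = 0.0222; rho = -0.94, adjusted p = 0.0381; r = -0.87 without the 2). Both measures come from the same libraries and share their total counts. For Zfp36l2 with epinephrine rho passed (-0.94, exact permutation p = 0.0167, adjusted p = 0.0381) and r did not (-0.71, exact permutation p = 0.0306, adjusted p = 0.0698), and neither measure passed for Tob1 in either group. The part of adipocyte content in these relations was not tested.

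**Figure D5:**
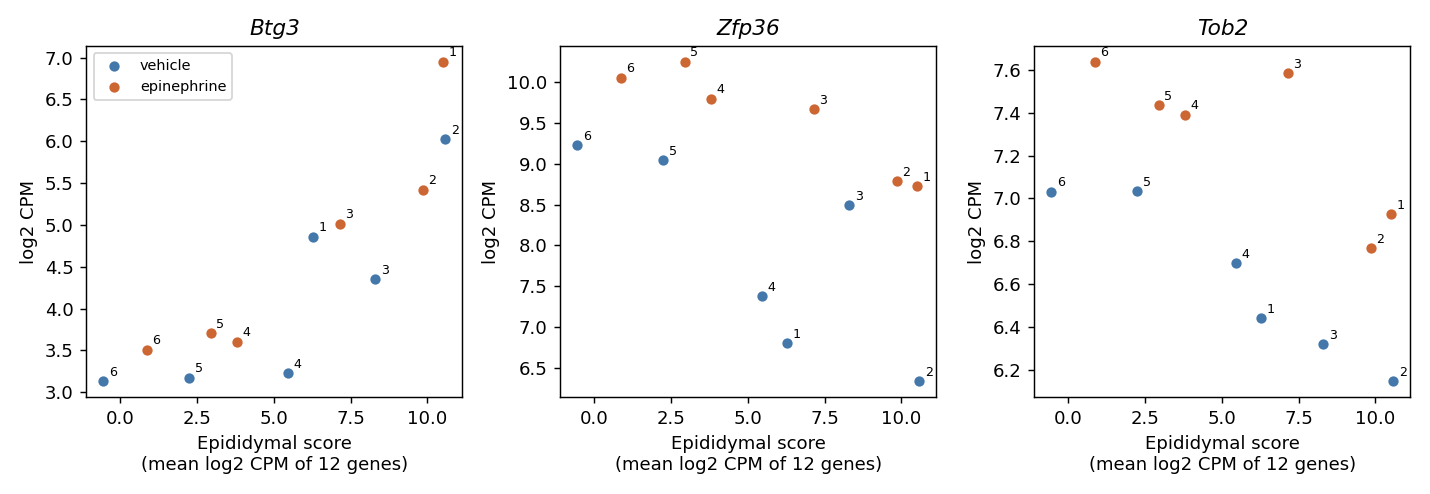
log2 CPM of Btg3, Zfp36 and Tob2 (y axis) against the epididymal score (x axis) in 12 libraries labelled by replicate number. Btg3 climbs with the score in both groups (r = 0.84 and 0.93), and Zfp36 and Tob2 descend, with epinephrine libraries above vehicle libraries of the same number. The descent passed for Zfp36 with epinephrine only (r = -0.77 with vehicle) and for Tob2 with vehicle only (r = -0.82 with epinephrine).

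Genes that moved most like the 3 that rose were sought by the root mean square difference of log2 CPM, centred on the vehicle mean, over 12 libraries and 13084 candidates. Nearest to Btg2 were Egr1, an early response transcription factor gene, and Slc25a25, a mitochondrial carrier gene (0.30 and 0.31 log2 units, against a median of 2.20). Egr1 had a log2 change of 2.85 (SE 0.48, adjusted p = 0.00482 by edgeR) and Slc25a25 of 2.87 (SE 0.28, adjusted p = 0.000139 by edgeR). The measure takes in the difference between groups, so log2 changes close to that of Btg2 follow from the choice and are no separate result. The median over candidates likewise depends on the member's own change. Nearest to Tob1 were Arrdc3, an alpha-arrestin gene, and Srf, the serum response factor gene (0.19 and 0.20, against a median of 1.08). Nearest to Btg1 were Filip1l and Bcl6b (0.17 and 0.18, against a median of 0.90).

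The machinery that these factors recruit was followed by lists. In the CCR4-NOT complex 0 of 11 genes were higher and 2 lower, where 2.65% and 3.58% of all tested genes were, with a median log2 change of -0.04. Cnot8, one of the deadenylases that BTG proteins bind, fell from 43.7 ± 2.40 to 37.4 ± 1.23 CPM (SD, n = 6 each), a log2 change of -0.22 with an SE of 0.05 (adjusted p = 0.0209, edgeR), with all epinephrine libraries below all vehicle libraries. Cnot3, a scaffold-bound subunit gene, fell by 0.26 on the log2 scale (adjusted p = 0.0493 by edgeR). With the replicate block neither passed (edgeR adjusted p = 0.0762 and 0.11). The call for Cnot3 was kept in 1 of the 12 fits that leave out a library, that without epinephrine 1, and that for Cnot8 ended without vehicle 1, 3, 4 or 5 or epinephrine 3 or 4. Of these 2, Cnot8 was called in 14 and Cnot3 in 8 of 26 alternatives.

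Over all tested genes 2.65% were higher and 3.58% lower, the shares to set beside each list of this paragraph. Of 11 other deadenylase and poly(A)-binding protein genes, 1 was higher and 0 lower. It was Noct, which encodes nocturnin, named as a deadenylase and rhythmic in many tissues. Noct was at 25.2 to 63.2 CPM with vehicle and 89.1 to 183 CPM with epinephrine, a 3.49-fold rise with no overlap (log2 change 1.80, SE 0.25, adjusted p = 0.00157 by edgeR). Of 15 decapping and 5′ decay genes, 0 were higher and 1 lower, Gigyf1, a partner of the cap-binding repressor 4EHP, which fell from 94.7 ± 9.20 to 67.9 ± 4.65 CPM (SD, n = 6 each), a log2 change of -0.48 with an SE of 0.07 (adjusted p = 0.00246, edgeR). Scaling by library size alone moved the median over all genes to -0.11 and called 1466 of 16175 genes lower, against 579 with TMM. In that fit 6 of these 15 were lower. The exosome and Ski list had 0 higher and 1 lower of 14, Exosc7, at -0.27 (adjusted p = 0.0421 by edgeR; 0.136 with the replicate block), a call that was kept in only 1 of the 12 fits that leave out a library, that without epinephrine 6. Scaled by library size alone, 5 of these 14 were lower, beside the 1466 of all 16175 genes.

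Of 18 other RNA-binding regulators, among them Elavl1, the Roquin genes and the Regnase genes, 0 passed in either direction by edgeR. At unadjusted p under 0.05 there were 4, DESeq2 called 1 of them (Cpeb2), and N4bp1 was nearest in the edgeR fit (log2 change -0.23, adjusted p = 0.0802). Genes whose products modify or bind tristetraprolin showed 3 higher and 0 lower of 12, with a median of 0.16. Of all tested genes, 2.65% were higher and 3.58% lower. Ppp2ca, a catalytic subunit gene of protein phosphatase 2A, rose 1.66-fold, from 221 ± 22.0 to 367 ± 56.1 CPM (SD, n = 6 each), a log2 change of 0.74 with an SE of 0.11 (adjusted p = 0.00282, edgeR). Ywhah, a 14-3-3 gene, rose by 0.24 on the log2 scale (adjusted p = 0.0128 by edgeR; 0.0643 with the replicate block; 0.0504 without epinephrine 4; 0.123 with library size alone). Mapkapk2, the kinase gene that acts on tristetraprolin, rose by 0.37 (adjusted p = 0.0351 by edgeR), a call that ended without vehicle 1, 3, 4 or 6 or epinephrine 3, 4, 5 or 6. Ywhaz passed with the block (adjusted p = 0.0451 by edgeR).

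Among 22 messages known as tristetraprolin targets, 17 were tested, 3 were higher and 0 lower, with a median of 0.24. The shares over all tested genes were 2.65% higher and 3.58% lower. Fos rose 9.58-fold (log2 change 3.26, SE 0.54, adjusted p = 0.00411 by edgeR). Vegfa, the vascular growth factor gene, rose 2.42-fold (1.27, SE 0.20, adjusted p = 0.00318 by edgeR). Cytokine targets were among those that did not pass: Tnf was at -0.10 (SE 0.51), Il6 at -0.98 (SE 1.14), Cxcl1 at -0.88 (SE 1.12) and Ccl2 at -1.28 (SE 0.82), while Il10 was at 1.34 (SE 0.65), Ccl3 at 0.88 (SE 0.76), Lif at 0.24 (SE 0.29) and Cxcl2 at 0.05 (SE 1.00). Il1b was at -0.28 (SE 0.88), and these estimates lay on both sides of 0. Of the tested targets 7 held the nonamer, Fos and Vegfa among them. With the replicate block 5 targets were higher, Myc and Plaur joining (edgeR adjusted p = 0.0266 and 0.0248).

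Partners of BTG/TOB proteins, a list that shares Cnot7, Cnot8 and Pabpc1 with those above, showed 1 higher and 2 lower of 11. Over all tested genes the shares were 2.65% and 3.58%. Smad1 was higher (0.43, adjusted p = 0.0214 by edgeR) and Smad5 (-0.27, adjusted p = 0.0354 by edgeR) and Cnot8 lower, and with the replicate block none of these 3 passed (edgeR adjusted p = 0.0643, 0.0632 and 0.0762). Smad1 did not pass without vehicle 1 or epinephrine 5 or 6, and Smad5 without vehicle 1, 2, 4 or 6 or epinephrine 3, 4, 5 or 6. Of 12 proliferation genes, such as Mki67 and Top2a, 0 passed in either direction by edgeR (1 at unadjusted p under 0.05, Pcna, which DESeq2 called), with a median of -0.17.

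With listed age as a covariate, the genes of these decay and partner lists named as higher or lower in the comparison without a covariate no longer passed. Noct was then at 0.69 (adjusted p = 0.126 by edgeR), Fos at 0.99 (adjusted p = 0.275 by edgeR) and Vegfa at 0.29 (adjusted p = 0.434 by edgeR). Other genes of the lists passed with the covariate and not without it, and over the whole table that fit called 2339 genes higher and 1528 lower. Among them Cnot7 (0.74, adjusted p = 0.0463 by edgeR), Ywhaz (0.82, adjusted p = 0.0102 by edgeR), Hoxb9 (4.98, adjusted p = 0.0275 by edgeR) and Exosc6 (3.65, adjusted p = 0.0372 by edgeR) were higher. Mapk14 (-0.64, adjusted p = 0.0251 by edgeR), Zc3h12a (-1.94, adjusted p = 0.0479 by edgeR), Ywhab (-0.99, adjusted p = 0.0378 by edgeR) and Mcm3 (-0.71, adjusted p = 0.0388 by edgeR) were lower.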

How the data were processed

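The authors deposited a table of read counts by gene (whole numbers, not normalized) with gene lengths, and a table of variance-stabilized values on a log2-like scale (7.11 to 19.2) for 20185 genes. Per the submitters' processing notes, HISAT2, featureCounts, cutadapt, FastQC and DESeq2 were used, with the build mm10; how strand was set, and which annotation was used, is not given in the sources used here. RNA was extracted with TRIzol and RNeasy and made into libraries with a SMARTER kit, per the labels' protocols. Genes given by an Entrez identifier without a symbol (1312, 0.253% to 0.315% of counts) were kept.

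Genes were filtered with filterByExpr (minimum count 10, minimum total 15), scaled by TMM and tested with edgeR 4.0.16 (glmQLFit, robust; glmQLFTest; R 4.3.3) over 16175 genes with Benjamini-Hochberg adjustment and a threshold of 0.05. The common dispersion corresponds to a biological coefficient of variation of 0.451. SE is the unshrunk log2 fold change over the square root of F. log2 CPM use a prior count of 1. Paralog ratios used counts plus 0.5, exact two-sided permutation tests and adjustment over 7 pairs; intervals hold the shifts not rejected. Alternatives were 3 other scalings (RLE, upper quartile, library size), 2 other filters (none, mean CPM from 1 up), limma 3.58.1 on the deposited log2-like values, DESeq2 1.42.0, the replicate block, listed age, the epididymal score, subsets of libraries and a threshold of 0.01. The edgeR script was tested on simulated data.

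The titles give the replicate numbers but state no pairing between groups, so the block is an alternative and not a known pairing. Deviations from the group mean correlated between the libraries of a number, across genes, at 0.262 to 0.799 in all 6 pairs, above the 0.1 set for pairing, although only 3 of 12 libraries correlated best with their own number. The epididymal score was higher in numbers 1 to 3 than in numbers 4 to 6 of both groups, so these correlations cannot show a pairing. The block and the score as a covariate overlap in what they adjust for, so passes in both are not independent. No 2 libraries were identical (0 pairs). Members, lists and alternatives were chosen with earlier results of these data known. All 8 members are named; from each pathway list up to 4 genes past the threshold with the smallest p, otherwise the 1 with the smallest p; and the 2 genes most like each member that passed, from an average log2 CPM of 1 up. The cytokine genes, Cpeb2 and the genes whose calls changed were named after their values were seen. Gene positions and promoter windows are RefSeq's (GRCm38.p6). Of the tristetraprolin targets that passed, 1 is counted but not reported by itself here.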

Additional observations from a re-analysis of the deposited data

Results flagged for a closer look

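In 30 groups of 6 libraries (8 genes and 7 paralog ratios in each treatment), a library lay far from the other 5 by a gap rule in 4. Chance meets the rule in about 1 of 20 groups if values are normally distributed. It was applied to CPM for genes and to log2 values for ratios, and the groups share genes and libraries, so that rate is only a guide. Epinephrine 1 was low for Zfp36l2, at 140 CPM with the next library at 243 CPM. The same library was high for Btg3, at 124 CPM with the next at 42.8 CPM, and vehicle 2 was high for Btg3 in its group, at 65.2 CPM with the next at 29.0 CPM. Both libraries had Gpx5 above 0.5% of counts. On the log2 CPM scale Btg3 stood out less. Epinephrine 1 was at 6.95, with the next at 5.42 and the lowest at 3.51, and vehicle 2 at 6.03, with 4.86 and 3.13. The log2 ratio of Zfp36 to Zfp36l2 was low in epinephrine 2, at 0.86 with the next at 1.60, and this library had Gpx5 above 0.5% of counts too. The part of epididymal transcripts in these values was not tested.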

How the results depend on the processing

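Of the 8 genes, 3 were called higher, and 3 to 4 when any single library was left out. The count was 5 with DESeq2, 5 with the replicate block, 5 with the epididymal score as a covariate, 5 within numbers 4 to 6 and 0 within numbers 1 to 3; it was 4 without the 3 libraries rich in Gpx5 and 2 with listed age. No member was called lower under any alternative run (0 in each). Blocking by replicate number added Zfp36 and Tob2 and ended no member's call. Reversed directions were those of Zfp36 (-1.01), Zfp36l1 (-0.55) and Tob2 (-0.27) with listed age, and of Btg3 (-0.079) without epinephrine 1, which reached 1.40 without vehicle 2; the cause was not tested. Over all genes, against 428 higher and 579 lower, the counts were 385 and 365 with the replicate block, 760 and 873 with DESeq2, 361 and 1466 with library size alone, 2339 and 1528 with listed age and 650 and 981 with the epididymal score. They were 786 and 1028 without the 3 libraries rich in Gpx5, 696 and 632 within numbers 4 to 6, 228 and 185 at an adjusted p of 0.01, 461 and 447 with RLE scaling, and 317 to 549 and 276 to 797 with single libraries left out. The Btg2 to Btg3 difference passed with the replicate block by an exact sign-flip test (2.38, adjusted p = 0.0365). The smallest unadjusted p this test can give with 6 numbers is 0.03125, reached when all 6 differences share a sign, and the titles state no pairing. The Btg2 to Btg3 difference also passed without the 3 libraries rich in Gpx5 (2.89, adjusted p = 0.0278), and ran from 1.80 to 2.96 with single libraries left out. That of Btg1 to Btg3 ran from -0.030 (without vehicle 2) to 1.06. By CPM without length the ranks with vehicle were 2 for Zfp36l2, 3 for Zfp36l1, 4 for Btg1, 5 for Btg2, 6 for Tob2 and 7 for Tob1. With epinephrine they were 1 for Btg2, 2 for Zfp36, 3 for Btg1, 5 for Zfp36l2 and 6 for Tob1. Relatives with at most 3 counts in a library were too shallow to test.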
